A study of Mus musculus with 6 samples.

Results

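The cadherin superfamily was examined in epididymal fat of mice kept in the cold and of control mice. Members were the protein-coding genes of the GENCODE M21 annotation (mouse build GRCm38) whose symbols name a numbered cadherin (Cdh), a cadherin-related gene (Cdhr), a protocadherin (Pcdh), a desmocollin (Dsc), a desmoglein (Dsg), a Celsr gene or a Fat gene. This rule gave 113 of 21815 protein-coding genes, and it used no measured value. Polyadenylated RNA came from 6 male wild type C57BL/6N mice, 20 weeks old, and each library holds the epididymal white adipose tissue of 1 mouse, homogenised whole. The 3 cold mice (cold 7, cold 12 and cold 16) spent 24 h at 4 °C, housed singly. The 3 controls (ctrl 5, ctrl 6 and ctrl 10) carry only the label ctrl, with a general housing temperature of 22 to 24 °C. The treatment text is the same for all 6 samples, and the sources used here do not say whether controls lived alone. Each number identifies a mouse, so the p-values measure the spread between animals.

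Cadherins are calcium-dependent adhesion proteins. Classical cadherins bind the same cadherin on the neighbouring cell and are tied to actin through catenins, while the desmosomal cadherins are tied to keratin through plakoglobin, plakophilins and desmoplakin. E-cadherin holds epithelial sheets together, VE-cadherin seals the junctions of blood vessels, clustered protocadherins give neurons an identity code, and the giant Fat and Celsr proteins orient cells within a sheet. Fat tissue itself is mostly adipocytes, with vessels, stromal cells and immune cells between them, a mesothelial covering and, in this depot, the male reproductive tract close by.

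Totals of 19735167 to 28608052 estimated counts per library stand behind the values. Levels of different genes are compared as TPM (abundance scaled for transcript length and library size), and changes of 1 gene as CPM (counts scaled for library size). Adipocyte marker genes summed to 62146 to 73783 TPM in all 6 libraries, which fits the tissue label. Secretory genes of neighbouring organs stood out in 1 library of each group. Genes of the seminal vesicle summed to 375.5 TPM in ctrl 10 and to at most 2.87 TPM in the other 5 libraries. Genes of the epididymal duct summed to 329 TPM in cold 7 and to at most 4.82 TPM elsewhere, carried by Crisp1 and Spink8, with Lcn9 at 0 in all 6. Results that rest on these 2 libraries are given with and without them.

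Promoter sequence from RefSeq (GRCm38.p6) could be matched for 33 members, which have 36 windows. The windows are shown for 3 epithelial members, Cdhr2, Cdhr4 and Cdhr5, and for Cdh23, chosen after their values were seen. In each of these genes the cold mice did not overlap the controls in CPM. Cdhr2 and Cdh23 passed the test given below, and Cdhr4 and Cdhr5 did not. Cdh1 and Cdh3, which also passed it, are not shown. Each window shown runs from 250 bases before the transcription start through the next 30 bases, on the strand of the gene, 5′ to 3′. Their places are chr13:54701213-54701492 (plus strand) for Cdhr2, chr9:107992207-107992486 (plus) for Cdhr4, chr7:141276757-141277036 (minus) for Cdhr5 and chr10:60696461-60696740 (minus) for Cdh23. Capitals mark matches, on either strand, to 4 motifs that were searched. The first was the E-box read by Snail and Zeb repressors, CACCTG on one strand and written as CAGGTG from the other. For RFX only a half-site, a part of the full site, was searched, GTTGCC, or read from the other strand GGCAAC. For HNF1 it was also a half-site, GTTAAT, or read from the other strand ATTAAC. The grainyhead motif was AACCGGTT, which reads the same from both strands. No match shown overlaps another.
Cdhr2: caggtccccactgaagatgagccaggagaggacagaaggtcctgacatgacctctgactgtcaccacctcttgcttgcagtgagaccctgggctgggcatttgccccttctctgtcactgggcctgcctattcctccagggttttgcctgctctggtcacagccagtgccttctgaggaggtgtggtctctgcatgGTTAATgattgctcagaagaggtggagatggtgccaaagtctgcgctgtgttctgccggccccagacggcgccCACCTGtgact
Cdhr4: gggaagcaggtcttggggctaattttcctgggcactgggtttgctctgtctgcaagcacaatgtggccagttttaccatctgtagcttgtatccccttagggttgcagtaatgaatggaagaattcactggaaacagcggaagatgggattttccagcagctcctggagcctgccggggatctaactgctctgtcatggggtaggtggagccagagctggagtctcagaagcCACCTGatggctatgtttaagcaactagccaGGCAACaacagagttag
Cdhr5: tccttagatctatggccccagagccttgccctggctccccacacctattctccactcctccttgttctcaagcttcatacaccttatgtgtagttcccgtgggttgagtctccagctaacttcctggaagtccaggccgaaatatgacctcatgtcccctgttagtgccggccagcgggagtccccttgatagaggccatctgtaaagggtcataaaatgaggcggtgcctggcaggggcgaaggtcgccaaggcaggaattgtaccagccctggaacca
Cdh23: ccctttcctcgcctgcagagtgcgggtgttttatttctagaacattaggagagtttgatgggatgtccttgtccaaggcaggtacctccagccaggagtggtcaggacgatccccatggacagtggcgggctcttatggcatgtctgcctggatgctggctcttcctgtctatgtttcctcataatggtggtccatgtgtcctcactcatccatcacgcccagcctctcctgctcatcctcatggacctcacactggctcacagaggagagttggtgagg
Cdhr2 held GTTAAT starting at position -54 and CACCTG at 20, counted from the transcription start. Cdhr4 held CACCTG at -18 and GGCAAC at 14. No match lay in the windows of Cdhr5 and Cdh23. Over all 32851 promoter windows of this length, 19.1% held the E-box, against 9 of the 36 member windows. The RFX half-site was in 11.8% of all windows and in 2 of 36, those of Cdhr3 and Cdhr4. The HNF1 half-site was in 6.85% of all windows and in 4 of 36, and the grainyhead motif was in 0.131% and in 0 of 36. A match is a string of letters and was not tested as a binding site.

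Of the 113 members, 7 averaged over 10 TPM, 29 averaged 1 to 10 TPM, and 77 stood at 1 TPM or less, among them 10 with no count in any library. The superfamily summed to 479, 414 and 416 TPM in ctrl 5, ctrl 6 and ctrl 10 and to 356, 460 and 459 TPM in cold 7, cold 12 and cold 16. Most of this sum came from few genes. Cdh5 (VE-cadherin) alone held 31.3% of it, Pcdhgc4 13.1%, Pcdhgc3 11.3%, Cdh13 (T-cadherin) 7.19% and Pcdh1 6.70%, together 69.6%. E-cadherin, the best known classical cadherin, was not among the abundant members, at 0.346 ± 0.442 TPM in controls and 4.62 ± 1.58 TPM in the cold (SD, n = 3 each).

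**Figure D1:**
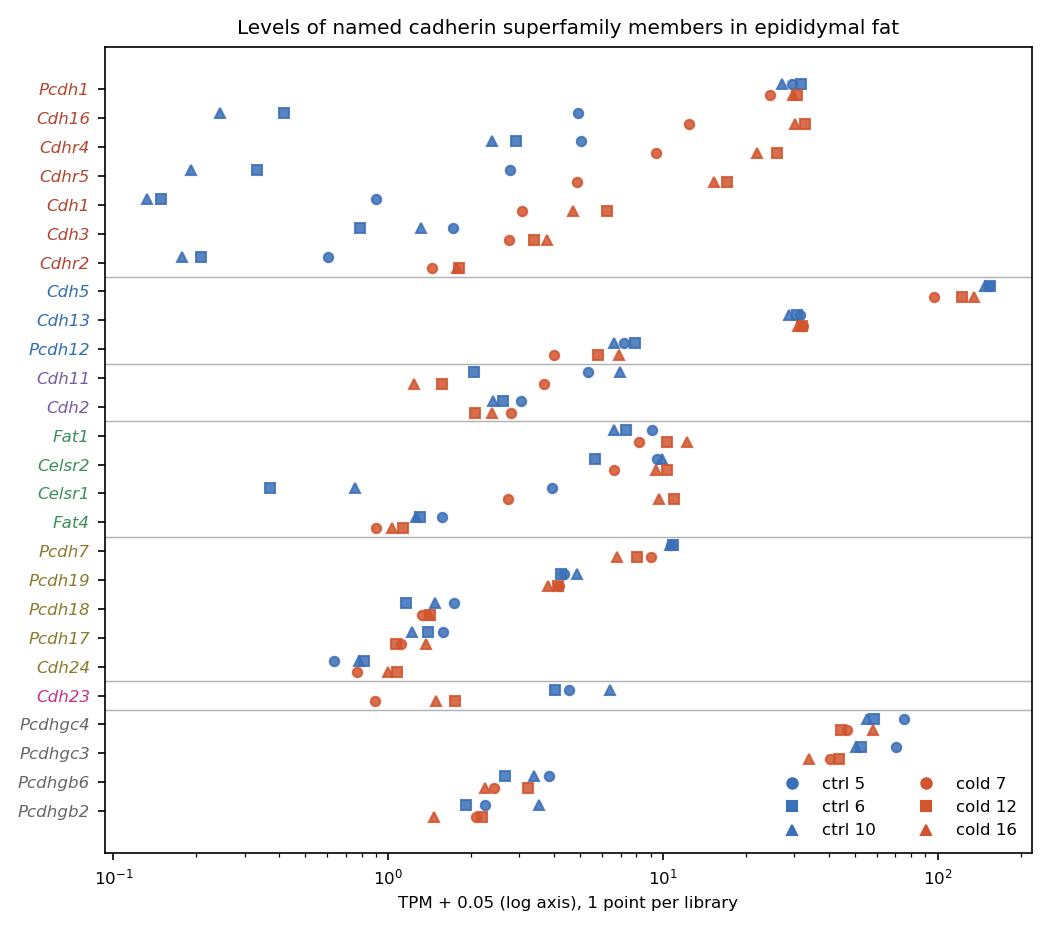
Level per length of 26 named members, with TPM + 0.05 on a log axis, 1 point per library (control mice blue, cold mice orange, a marker shape for each mouse). Cdh5 stands highest, at 149 to 154 TPM in controls, and the epithelial members Cdh1, Cdh16, Cdhr2, Cdhr4 and Cdhr5 have every cold mouse above every control.

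A low-count filter left 68 members for testing and 45 untested. At an adjusted p under 0.05 (edgeR's quasi-likelihood test, Benjamini-Hochberg over 17852 genes), 4 of the 68 members were called, 3 higher in the cold (Cdh1, Cdh3 and Cdhr2) and 1 lower (Cdh23). Over all genes tested 2.89% were called, 2.32% higher and 0.566% lower, so the members' count is read against a background of that size. At an unadjusted p under 0.05 there were 15 members, against 17.6% of all genes. The 3 cold mice lay above the 3 controls in 9 tested members and below them in 10, where all genes gave 12.7% and 11%. The median log2 difference, cold minus control, was -0.11 over tested members and -0.01 over all tested genes.

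**Figure D2:**
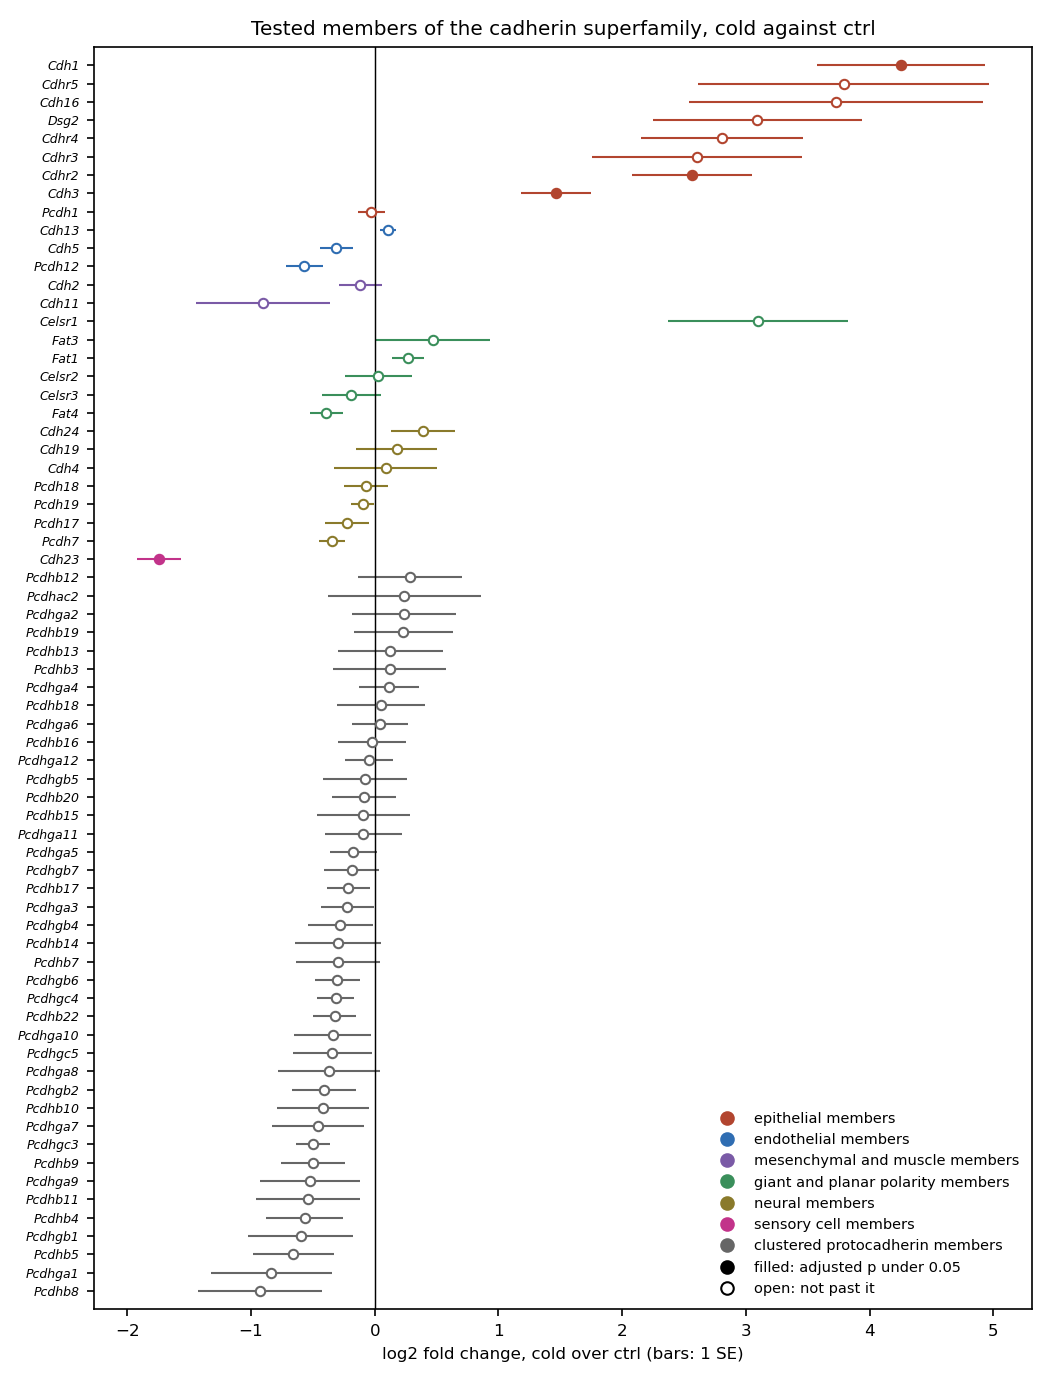
Log2 difference in CPM, cold minus control, with a bar of 1 SE on each side, for the 68 members tested, grouped by role; filled points have an adjusted p under 0.05. Cdh1 at 4.25, Cdhr2 at 2.57, Cdh3 at 1.47 and Cdh23 at -1.75 are the filled points, and the clustered protocadherins lie close to 0, mostly below it.

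Of the epithelial cadherins, Cdh1, Cdh3 and Cdhr2 rose in the cold from low control levels, Pcdh1 had a log2 difference of -0.03, and the other 5 tested members of this group had higher means in the cold without passing the test. Of the 19 epithelial members 9 could be tested, and their median log2 difference was 2.81. Of these 9, 3 were called higher and 0 lower, against 2.32% and 0.566% of all genes tested. In 5 of these 9 (Cdh1, Cdh16, Cdhr2, Cdhr5 and Dsg2) fewer than 3 control libraries were over the filter and all 3 cold ones were. The median and the count of calls therefore partly follow from the filter and support nothing.

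Cdh1 (ENSMUSG00000000303.12, chr8:106603351-106670246) encodes E-cadherin, the main adhesion molecule of epithelial junctions. It stood at 1.65, 0.312 and 0.256 CPM in ctrl 5, ctrl 6 and ctrl 10, and at 9.39, 19.2 and 15.4 CPM in cold 7, cold 12 and cold 16. The groups were far apart, with the highest control well below the lowest cold mouse. The rise was 4.25 ± 0.68 on the log2 scale (SE, edgeR adjusted p = 0.0387). Of its estimated counts 99.7% were on 1 coding transcript, Cdh1-201, which held 36, 7 and 5 counts in the 3 controls but 215, 490 and 442 in the 3 cold mice.

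Cdh3 (ENSMUSG00000061048.8, chr8:106510891-106557297) encodes P-cadherin, a classical cadherin of basal epithelia, and ends 46.1 kb before Cdh1 begins. Its values were 4.82, 2.23 and 3.79 CPM in the controls, in the same order of mice, and 8.08, 10.0 and 11.9 CPM in the cold. Again no mouse crossed over, and the rise was 1.47 ± 0.28 on the log2 scale (SE, edgeR adjusted p = 0.0399). Cdhr2 (ENSMUSG00000034918.8, chr13:54701461-54736662), whose protein links the tips of microvilli in a brush border, had 1.48, 0.446 and 0.359 CPM in controls and 3.89, 4.91 and 5.09 CPM in the cold. It rose by 2.57 ± 0.48 on the log2 scale (SE, edgeR adjusted p = 0.0399), with no overlap. No other annotated gene overlaps Cdh1, Cdh3 or Cdhr2. All 3 calls were lost without ctrl 6, ctrl 10, cold 12 or cold 16, with edgeR adjusted p between 0.101 and 0.152, and in 3 of these 4 fits no gene of the whole table was called. Cdh1 also lost its call with an offset for transcript length (0.0649) and with no low-count filter (0.123). Without ctrl 10 and cold 7 together the adjusted p was 0.0676 for Cdh1, 0.0807 for Cdh3 and 0.0580 for Cdhr2, with log2 differences of 4.11, 1.63 and 2.35.

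The remaining epithelial members split by mouse rather than only by group. Cdhr5, the partner of Cdhr2 in the brush border, had 3.42, 0.223 and 0.0513 CPM in ctrl 5, ctrl 6 and ctrl 10 and 6.90, 23.2 and 23.4 CPM in cold 7, cold 12 and cold 16 (log2 difference 3.79, edgeR adjusted p = 0.183). Cdh16, the kidney-specific cadherin of tubule epithelium, had 6.64, 0.669 and 0.0513 CPM against 12.1, 47.4 and 42.1 CPM (3.73, edgeR adjusted p = 0.197). For both, ctrl 5 stood above the other 2 controls and cold 7 below the other 2 cold mice. Cdhr4 had 3.13, 1.61 and 0.923 CPM against 4.85, 17.5 and 17.8 CPM (2.81, edgeR adjusted p = 0.0897), again with no overlap. Dsg2, the desmoglein of simple epithelia, and Cdhr3, a cadherin of ciliated airway cells, were chosen after their values were seen. Dsg2 had 1.98, 0.268 and 0.256 CPM against 3.45, 10.4 and 8.26 CPM (3.09, edgeR adjusted p = 0.125). Cdhr3 had 2.97, 0.759 and 0.461 CPM against 2.88, 12.4 and 10.7 CPM (2.61, edgeR adjusted p = 0.189), so cold 7 lay under ctrl 5. Pcdh1, a protocadherin of airway epithelium, stood at 83.1 to 98.7 CPM in controls and 75.2 to 94.9 CPM in the cold (-0.03, edgeR adjusted p = 0.932). It was the only tested epithelial member with a log2 difference below 0.

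The order with ctrl 5 highest among controls and cold 7 lowest among cold mice held for 8 of the 9 tested epithelial members, against 14.8% of all genes tested. The same order held for 10 of 10 tested motile cilium markers and 8 of 11 tested epithelium markers. This order of mice was taken from these same data, so the counts of genes that follow it support nothing. Without ctrl 5 and cold 7 together, Cdh16, Cdhr4, Cdhr5 and Celsr1 joined Cdh1, Cdh3 and Cdhr2 among the members called higher, and the epithelial median became 4.22. Since these 2 mice held the inner places in both groups for most of these genes, leaving them out had to widen the differences, and the added calls support nothing.

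Desmosomal cadherins were otherwise almost silent. Of the 9 desmocollins and desmogleins, 1 could be tested (Dsg2) and 3 (Dsc1, Dsg3 and Dsg4) had no count in any library. The other untested epithelial members, Cdh17, Cdh26, Dsc2, Dsc3, Dsg1a, Dsg1b and Dsg1c, held 2 to 55 counts over all 6 libraries and were not tested. Dsg1a, Dsg1b and Dsg1c are near-identical copies, so their split of reads is uncertain.

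Markers of other cells moved beside the epithelial members. The 12 epithelium markers, all found, summed to 66.1, 21.2 and 46.0 TPM in ctrl 5, ctrl 6 and ctrl 10 and to 136, 210 and 190 TPM in the cold mice. The 10 motile cilium markers found, of 12 listed, summed to 13.9, 3.51 and 2.20 TPM in controls and to 36.2, 105 and 80.8 TPM in the cold; Foxj1, the master regulator of motile cilia, had 5.41, 0.499 and 0.0267 TPM in controls and 11.4, 43.7 and 37.3 TPM in the cold (edgeR adjusted p = 0.183, not called). Cdh1 amounted to 0.179 to 1.29% of the epithelium marker sum in controls and to 2.22 to 2.95% in the cold. That sum includes Krt19, which is also in the mesothelium list. Krt19 gave 27.4, 9.21 and 24.7 TPM in controls and 43.0, 27.1 and 26.6 TPM in the cold. The low share of Cdh1 in controls thus depends in part on Krt19, and a share without it was not computed. The 7 mesothelium markers summed to 177, 77.3 and 195 TPM in controls and to 195, 74.0 and 73.0 TPM in the cold, which is another order of mice. Epididymal duct markers were high in cold 7 only and seminal vesicle markers in ctrl 10 only. Among cold mice Cdh1 was lowest in cold 7, and among controls ctrl 6 and ctrl 10 were both low and close together. The part of any of these cells in the epithelial result was not tested. In whole tissue, fewer cells of a type and less RNA per cell cannot be told apart, and the same holds for more.

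**Figure D3:**
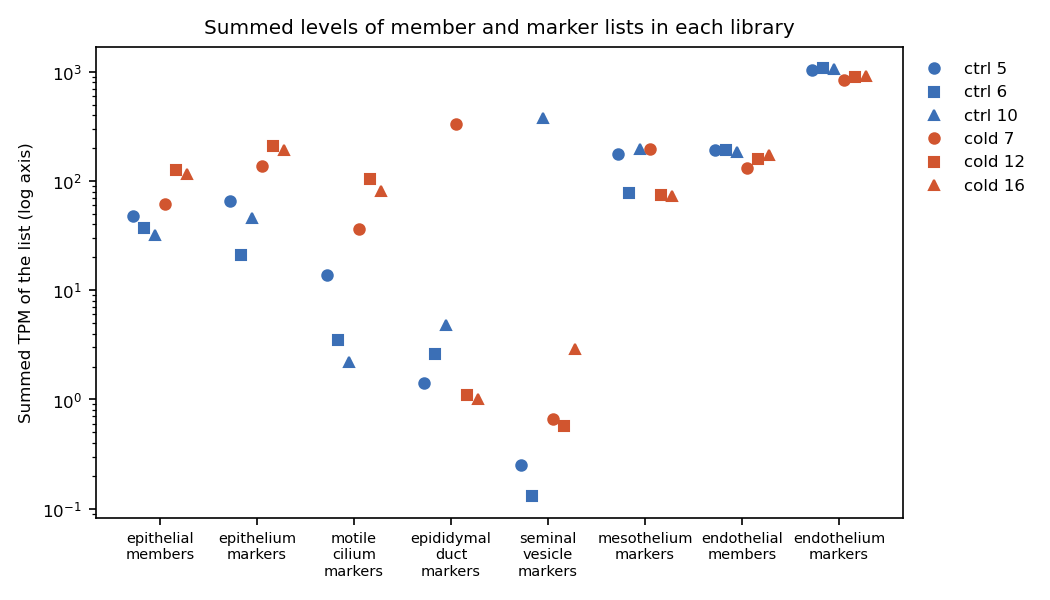
Summed TPM per library on a log axis for the epithelial members, 5 marker lists that could travel with them, the endothelial members and the endothelium markers (control mice blue, cold mice orange). The sum of the epithelial members includes Pcdh1, the most abundant of them at 6.70% of the superfamily's TPM, with a log2 difference of -0.03. The epithelium and motile cilium markers have every cold mouse above every control (136 to 210 against 21.2 to 66.1 TPM for epithelium), while the epididymal duct and seminal vesicle markers are high in a single mouse each.

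Endothelial cadherins were the most abundant of the family and had lower means in the cold, apart from Cdh13. None of the 3 was called (2.89% of all genes tested), and their median log2 difference was -0.31. Cdh5 (ENSMUSG00000031871.9, chr8:104101625-104144511), which holds vessel walls together, had 392, 420 and 401 CPM in the controls and 261, 330 and 387 CPM in cold 7, cold 12 and cold 16. Every cold mouse was below every control, though cold 16 came close, and the difference was -0.31 ± 0.13 (SE, edgeR adjusted p = 0.281). Pcdh12, a protocadherin of endothelial junctions, had 19.5, 19.5 and 21.5 CPM against 10.5, 14.4 and 15.9 CPM (-0.57, edgeR adjusted p = 0.0856). Cold 7 was lowest for both genes. Cdh13, a cadherin on a lipid anchor that binds adiponectin, had 77.1, 78.4 and 73.0 CPM against 82.0, 80.9 and 83.9 CPM. The groups did not overlap, yet the difference was only 0.11 ± 0.06 (SE, edgeR adjusted p = 0.448).

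The 10 endothelium markers summed to 1044, 1072 and 1053 TPM in controls and to 840, 898 and 918 TPM in the cold. Egfl7 alone gave 387, 435 and 423 TPM of this in controls and 268, 303 and 354 TPM in the cold. All 10 had log2 differences below 0, with a median of -0.12. In CPM 1 of the 10 had every cold mouse below every control, where all genes gave 11%. As a share of the marker sum, which thus leans on Egfl7, Cdh5 held 14.6, 14.4 and 14.1% in the controls. In cold 7, cold 12 and cold 16 it held 11.5, 13.6 and 14.7%, so the share was below the controls in 2 of 3 cold mice. The part of vessel content in the values of Cdh5 and Pcdh12 was not tested. Among 10 genes of endothelial junctions that work beside Cdh5, 0 were called (2.89% of all genes tested), with 9 below 0 and 1 above. The smallest p belonged to Jam2 (-0.37, edgeR adjusted p = 0.0540). Tie1, Ptprb and Kdr had log2 differences of -0.37, -0.28 and -0.12. Without cold 7 the median of the 3 endothelial members was -0.18, and without cold 16 it was -0.45. Adiponectin (Adipoq), the ligand of Cdh13, had 2259 ± 141 CPM in controls and 2122 ± 63.1 CPM in the cold (SD, n = 3 each; -0.09, edgeR adjusted p = 0.690). Its receptors Adipor1 (-0.12) and Adipor2 (-0.02) were not called either.

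Mesenchymal cadherins were present at low levels. Cdh2 (N-cadherin), typical of mesenchyme and neurons, had 8.49, 7.18 and 6.61 CPM in controls and 7.82, 5.73 and 7.04 CPM in the cold (-0.12, edgeR adjusted p = 0.799). Its sign turned without ctrl 5 (0.003) or without cold 12 (0.01). Cdh11 (OB-cadherin), a cadherin of mesenchymal cells, had 14.5, 7.45 and 21.5 CPM in controls and 13.1, 5.54 and 4.67 CPM in the cold (-0.90, edgeR adjusted p = 0.489). The groups overlapped, and ctrl 6, cold 12 and cold 16 were the 3 lowest mice both for Cdh11 and for the mesothelium markers given above; the part of mesothelium in this value was not tested. Cdh15 (M-cadherin) of muscle had 3 counts over all 6 libraries. Per length, Cdh2 was above Cdh1 in all 3 controls (2.36 to 2.99 against 0.0823 to 0.856 TPM) and below it in all 3 cold mice (2.01 to 2.76 against 3.01 to 6.18 TPM).

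The giant and planar polarity cadherins showed no call among 6 tested of 7, against 2.89% of all genes tested. Celsr1, a 7-pass cadherin of planar polarity in epithelia, had the widest gap: 7.30, 1.70 and 1.74 CPM in controls and 15.1, 41.5 and 37.1 CPM in the cold, with no overlap (3.10 ± 0.73 SE, edgeR adjusted p = 0.102). Its mice stood in the same order as the epithelial members, ctrl 5 highest among controls and cold 7 lowest in the cold. Of its estimated counts 83.6% were on Celsr1-203, a coding model shorter than the full-length Celsr1-201. Celsr2 had 31.9, 15.5 and 28.3 CPM against 22.7, 29.9 and 24.6 CPM (0.03, edgeR adjusted p = 0.975), and it fell below 0 without ctrl 6 (-0.22) or without cold 12 (-0.08). Fat4, the receptor of Dchs1 in tissue growth control, had 16.7, 14.0 and 13.8 CPM against 9.70, 12.3 and 12.0 CPM (-0.39, edgeR adjusted p = 0.174). Dchs1 itself had 31.1, 27.3 and 32.2 CPM against 22.9, 20.3 and 24.5 CPM (-0.42, edgeR adjusted p = 0.0687). Ligand and receptor were both lower in every cold mouse, and neither was called.

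Fat1 had 42.8 to 56.8 CPM in controls and 51.2 to 67.2 CPM in the cold (0.27, edgeR adjusted p = 0.343). Of 96 member transcripts that could be tested 0 were called by edgeR and 20 had an unadjusted p under 0.05, where all tested transcripts gave 0.0% and 8.15%. The transcript Fat1-205 of Fat1, the model with the most upstream start, was listed at 0 counts in all 3 controls and at 107, 106 and 36 counts in cold 7, cold 12 and cold 16. That transcript had the smallest adjusted p of any member transcript (edgeR adjusted p = 0.221) and was not called; the main models Fat1-201 and Fat1-203 are nearly as long (14627 and 14651 nt against 14814 nt), so the split of reads between them is an estimate. Fat2 held 8 counts in all. Of 12 planar polarity partners, among them Vangl2 (0.24), Fzd6 (0.65) and Dvl2 (-0.30) as log2 differences, 0 were called (2.89% of all genes tested).

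Neural cadherins were mostly close to silent in this tissue. Of 21 members 14 were below the filter, each with 1 to 61 counts over all libraries. The 7 tested had 0 called (2.89% of all genes tested) and a median log2 difference of -0.07. Pcdh7 was the highest per length, at 10.6, 10.9 and 10.6 TPM in controls and 8.95, 7.99 and 6.72 TPM in the cold. In CPM it had 44.2, 50.3 and 47.6 against 41.8, 37.5 and 32.6, all cold mice below all controls (-0.35 ± 0.10 SE, edgeR adjusted p = 0.119). Pcdh19, which pairs with N-cadherin in the brain, had 19.0, 19.2 and 22.3 CPM against 18.8, 18.8 and 18.8 CPM (-0.10, edgeR adjusted p = 0.665). The groups did not overlap, but the gap between the nearest mice was small. Pcdh17, Pcdh18 and Cdh24 overlapped between groups, with log2 differences of -0.22, -0.07 and 0.39. Pcdh18 turned to 0.02 without ctrl 10.

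Cdh23 was the member with the smallest p, and it fell in the cold. Cdh23 (ENSMUSG00000012819.15, chr10:60302748-60696490) encodes a long cadherin best known as the upper part of the tip link of inner ear hair cells, where Pcdh15 forms the lower part. It had 12.8, 13.3 and 15.3 CPM in ctrl 5, ctrl 6 and ctrl 10 and 3.19, 4.75 and 4.36 CPM in cold 7, cold 12 and cold 16. The lowest control lay far above the highest cold mouse, and the fall was 1.75 ± 0.18 on the log2 scale (SE, edgeR adjusted p = 0.0210), a control level 3.36 times that in the cold. Per length it stood at 4.95 ± 1.25 TPM in controls and 1.33 ± 0.439 TPM in the cold (SD, n = 3 each). The call was lost without ctrl 6 (edgeR adjusted p = 0.0722), ctrl 10 (0.0947), cold 12 (0.0968) or cold 16 (0.0528), with log2 differences between -1.85 and -1.66 in those fits. It held in the other 8 alternatives, among them the one without ctrl 10 and cold 7 (-1.52, edgeR adjusted p = 0.00714) and DESeq2 (-1.74).

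Its hair cell partners were scarce or not called. Pcdh15 had 18 counts and Cdhr1, a photoreceptor cadherin, 10 counts over all 6 libraries, and neither was tested. Of 9 tip link partners 5 could be tested and 0 were called (2.89% of all genes tested). All 5 had log2 differences above 0, with 0.21 for Cib2 and 0.35 for Whrn. Myo7a, the motor of the tip link, had 31.9, 25.9 and 31.5 CPM in controls and 37.8, 38.2 and 33.5 CPM in the cold (0.29, edgeR adjusted p = 0.179). Harmonin (Ush1c), which binds Cdh23 in hair cells and Cdhr2 and Cdhr5 in brush borders, had 0.989, 0.134 and 0 CPM against 3.93, 11 and 8.61 CPM (4.30, edgeR adjusted p = 0.0800). Its mice stood in the order of the epithelial members and, unlike those of Cdh23, were higher in the cold.

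The fall of Cdh23 was spread over its kinds of transcript. Of 16 annotated transcripts 11 had a count, and protein-coding models carried 55.5% of the counts, processed transcripts 27.5% and retained introns 17.0%. Coding models had 206, 148 and 158 counts in the 3 controls against 41, 66 and 62 in the 3 cold mice, or 7.74 ± 0.983 and 2.17 ± 0.412 CPM (SD, n = 3 each). Processed transcripts had 51, 99 and 67 counts against 22, 54 and 44, so ctrl 5 overlapped with cold 12. Retained introns had 53, 50 and 74 counts against 11, 1 and 19. The share of reads among the long coding models was not stable from mouse to mouse. Cdh23-204 was listed at 99, 148 and 137 counts for the controls, with 0 for every cold mouse, Cdh23-203 at 107, 0 and 21 against 41, 48 and 0, and Cdh23-205 at 62 in cold 16 alone. These models differ by few exons (70, 66 and 70 exons), so the shift between them is an estimate of read sharing. All 4 tested Cdh23 transcripts were below 0 and none was called (edgeR, 0.0% of all 42984 transcripts called). Vsir and Gm17455 overlap Cdh23 on the opposite strand and share 0 exon bases with it.

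**Figure D4:**
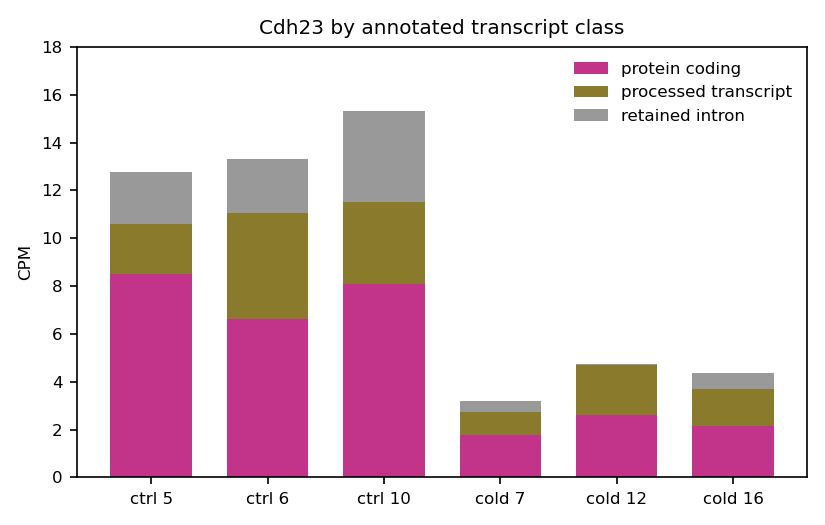
CPM of Cdh23 in each library, stacked by annotated kind of transcript (protein coding, processed transcript, retained intron), on an axis that starts at 0. The 3 control bars stand at 12.8 to 15.3 CPM and the 3 cold bars at 3.19 to 4.75 CPM, with coding models the largest layer in every control.

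The clustered protocadherins, 57 genes in the alpha, beta and gamma arrays of chromosome 18, were not called in either direction among 40 tested. They lay mostly below 0, 31 of the 40 against 9 above, with a median log2 difference of -0.29. Over all 17852 genes tested, 9359 lay below 0, the median was -0.01 and 2.89% were called. All members of a protocadherin array share constant exons or close sequence, so their values are not independent and the split of reads among them is uncertain. Of 14 alpha genes 1 was tested and 7 had no count, of 22 beta genes 18 were tested, and all 21 gamma genes were tested, 18 of them below 0. The gamma array carried nearly all of the signal, with 169, 129 and 134 TPM in controls and 108, 109 and 108 TPM in the cold. The SD of this sum was 21.9 TPM among controls and 0.625 TPM among cold mice.

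Pcdhgc3 and Pcdhgc4, the C-type genes at the end of the gamma array, whose use differs from the random choice among the other gamma promoters, were its most abundant members. Pcdhgc3 had 221, 167 and 167 CPM in controls and 134, 145 and 114 CPM in the cold, with no overlap (-0.50 ± 0.14 SE, edgeR adjusted p = 0.0970). It was called lower by DESeq2 and with no low-count filter. Pcdhgc4 had 106, 88.3 and 81.2 CPM against 67.7, 64.9 and 89.2 CPM, with cold 16 inside the control range (-0.31, edgeR adjusted p = 0.340). The 18 gamma A and B genes summed to 23.2, 17.6 and 27.2 TPM in controls and 19.8, 20.5 and 15.9 TPM in the cold, with overlap. Pcdhgb6 (-0.30) and Pcdhgb2 (-0.41) were the highest of them per length. Without ctrl 10 the median of the clustered genes moved to -0.13.

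Genes of the proteins that anchor cadherins inside the cell had calls in both directions. Of 16 catenin and desmosomal plaque genes 15 were tested, 1 rose and 2 fell, with a median log2 difference of 0.08; over all genes 2.32% were called higher and 0.566% lower. Pkp3, a plakophilin of epithelial desmosomes, had 1.98, 1.61 and 1.38 CPM in controls and 4.41, 7.97 and 6.48 CPM in the cold, a rise of 1.92 ± 0.27 (SE, edgeR adjusted p = 0.0238). Pkp2, a plakophilin known from heart muscle and simple epithelia, had 79.8, 90.6 and 89.7 CPM against 62.7, 62.6 and 67.0 CPM, a log2 difference of -0.44 ± 0.08 (SE, edgeR adjusted p = 0.0331). Plakoglobin (Jup), shared by desmosomes and classical junctions, had 460, 442 and 472 CPM against 307, 345 and 368 CPM, or -0.43 ± 0.09 (SE, edgeR adjusted p = 0.0437). None of the 3 genes overlapped between groups. Jup and Pkp2 were far more abundant than Pkp3: per length, Jup stood at 263 ± 10.1 TPM in controls, Pkp2 at 42.9 ± 2.25 TPM and Pkp3 at 2.07 ± 0.757 TPM (SD, n = 3 each).

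Desmoplakin (Dsp), chosen after its values were seen, had 4.95, 0.669 and 0.461 CPM against 11.4, 28.9 and 25.2 CPM (3.39, edgeR adjusted p = 0.138), in the order of mice of the epithelial members. Envoplakin (Evpl) had 8.12, 3.93 and 6.00 CPM against 12.1, 11.8 and 11.3 CPM (0.96, edgeR adjusted p = 0.0727). The catenins of classical junctions differed little, with -0.03 for beta-catenin (Ctnnb1), -0.06 for p120 catenin (Ctnnd1) and -0.17 for alpha-catenin (Ctnna1) as log2 differences, none called. Ctnnb1 and Ctnnd1 overlapped between groups. Ctnna1 was lower in every cold mouse, with 330, 341 and 355 CPM in controls against 309, 311 and 294 CPM (edgeR adjusted p = 0.280). All calls of Pkp3, Pkp2 and Jup were lost without ctrl 6, ctrl 10, cold 12 or cold 16, with edgeR adjusted p between 0.0591 and 0.157. Jup also lost it without ctrl 5 (0.0944), with the length offset (0.0545), without ctrl 5 and cold 7 (0.123) and without ctrl 10 and cold 7 (0.102). Pkp3 also lost it with the length offset (0.0606) and Pkp2 without ctrl 10 and cold 7 (0.0792).

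**Figure D5:**
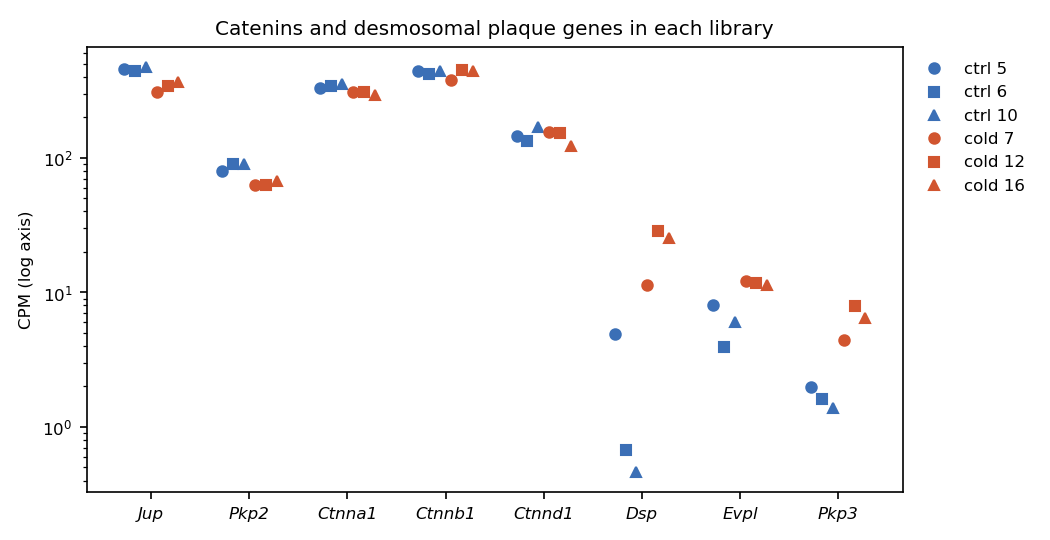
CPM per library on a log axis for 8 genes of the catenin and desmosomal plaque list (control mice blue, cold mice orange). Jup, Pkp2 and Ctnna1 have every cold mouse below every control, Pkp3, Evpl and Dsp have every cold mouse above, and the catenins Ctnnb1 and Ctnnd1 overlap.

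Nectins, the adhesion molecules that seed cadherin junctions, had 1 call among 5 genes, against 2.89% of all genes tested. Nectin4, found mainly in epithelia, had 1.24, 1.56 and 1.49 CPM in controls and 2.93, 3.85 and 3.31 CPM in the cold, a rise of 1.23 ± 0.23 (SE, edgeR adjusted p = 0.0367). Afadin (Afdn), which ties nectins to actin, had a log2 difference of -0.29 (edgeR adjusted p = 0.133), and Nectin1 and Nectin3 had 0.31 and 0.22. Nectin4 lost its call without ctrl 5 (0.0724), in the 4 fits named for the plaque genes (0.0955 to 0.150) and without ctrl 10 and cold 7 (0.0503).

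Of 13 known regulators of E-cadherin 11 were tested, 1 rose and 0 fell, where all genes gave 2.32% higher and 0.566% lower. Grhl2, a grainyhead factor that activates Cdh1 in epithelia, had 0.247, 0.179 and 0.103 CPM in controls and 1.22, 1.33 and 1.15 CPM in the cold, a rise of 2.75 ± 0.39 (SE, edgeR adjusted p = 0.0247). All 3 control values were below the filter's 0.426 CPM, so the gene was tested only because its cold libraries passed, and this single call supports nothing about the list. Its call was lost without ctrl 6, ctrl 10, cold 12 or cold 16 (0.0636 to 0.129). Grhl1, of the same family, had 9.56, 12.3 and 11.9 CPM against 7.78, 7.11 and 7.60 CPM (-0.59, edgeR adjusted p = 0.0668). Elf3 (4.01, edgeR adjusted p = 0.128) and Esrp1 (2.39, edgeR adjusted p = 0.0956), an epithelial transcription factor and an epithelial splicing factor, were higher in every cold mouse and not called. The repressors that read the E-box were not called either, with log2 differences of -0.16 for Zeb1, -0.09 for Zeb2 and -0.23 for Snai2, genes chosen after their values were seen. The surface proteases Adam10 and Adam15, which can cut cadherins, had log2 differences of -0.09 and -0.12 and were not called. Psen2, of the same list, had the smallest p there, with a log2 difference of 0.14 (edgeR adjusted p = 0.399).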

How the data were processed

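The tools named in the submitters' processing notes are bcl2fastq, cutadapt and Salmon, with build GRCm38; for versions, settings and strand handling, not given in the sources used here. Per the labels' protocols the library kit keeps strand, with 50 nt paired reads. The authors deposited for each library estimated counts, which need not be whole, TPM and an effective length for 140658 transcripts. Identifiers were joined to GENCODE M21 (139921 matched with version, 140137 without); 521 named no gene, held 0.124 to 0.394% of the counts and were left out. Estimated counts were summed per gene and rounded.

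The gene test used edgeR 4.0.16 in R 4.3.3: filterByExpr (minimum count 10, about 0.426 CPM, in 3 libraries; minimum total 15), TMM scaling, robust glmQLFit and glmQLFTest, cold against control, two-sided, with no covariate, Benjamini-Hochberg over 17852 genes, called under 0.05. Transcripts were tested the same way. SEs come from the F statistic. The deposited TPM values were summed per gene and not tested. An exact permutation test of 3 against 3 cannot go below p = 0.10. Libraries of 1 group differed by more than sampling noise in every pair (chi-square at least 11.1 times its degrees of freedom). No label gives a batch. The steps were also run on simulated data. There the share of false calls was above 0.05, and most genes changed 1.5-fold were missed.

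The members, the 7 member lists, the 8 partner lists and the marker lists were chosen with earlier results of these data known; 1 listed gene is not reported here. Marker lists not given above were smooth muscle and pericyte (450 to 552 TPM summed), progenitor and fibroblast (1404 to 2198), Schwann cell (18.0 to 28.6), macrophage (814 to 1448) and lymphocyte markers (9.13 to 17.3). Genes were named by rule: Cdh1, Cdh5 and Cdh23, and every called member. Each member list gave up to 4 tested members with the highest TPM and up to 2 with the smallest p. Each partner list gave up to 4 with the smallest p. The catenins, Dsp, Zeb1, Zeb2, Snai1, Snai2, Twist1, Twist2, Klf4, Dsg2, Cdhr3, marker genes and members below the filter were named after their values were seen. Alternatives were DESeq2 1.42.0, RLE size factors, omitting the low-count filter, an offset for transcript length, leaving out each library, and leaving out ctrl 5 with cold 7; leaving out ctrl 10 with cold 7 was added after the data were seen.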

Additional observations from a re-analysis of the deposited data

How the results depend on the processing

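The count of 4 members called became 9 with DESeq2 (6 higher, 3 lower), 11 without ctrl 5 and cold 7 together, and 2 without ctrl 10 and cold 7 together (Cdhr4 higher, Cdh23 lower). Leaving out 1 library gave 0 to 8. It was 0 without ctrl 6, ctrl 10, cold 12 or cold 16, where edgeR called 0, 0, 0 and 3 genes of the whole table and 13 to 15 members had an unadjusted p under 0.05; it was 8 without ctrl 5 and 6 without cold 7. With RLE size factors and the length offset it was 4, and with no filter 5. Among member transcripts 0 were called by edgeR (20 at an unadjusted p under 0.05), 1 with no filter and 11 with DESeq2. The epithelial median of 2.81 became 4.22 without ctrl 5 and cold 7, and 2.49 to 3.81 without 1 library. The endothelial median of -0.31 became -0.19 without ctrl 5 and cold 7, -0.18 without ctrl 10 and cold 7, and -0.45 to -0.18 without 1 library. That of clustered protocadherins, -0.29, became -0.17 without ctrl 10 and cold 7 and -0.31 to -0.13 without 1 library. That of Cdh23, the only tested sensory member, became -1.52 without ctrl 10 and cold 7. The protease median of -0.09 became -0.12 to 0.019 without 1 library (above 0 without ctrl 10).

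Signs turned for 7 genes with small differences. Pcdh1 turned to 0.063 without ctrl 5 and cold 7 and to 0.017 without ctrl 10 and cold 7, and ran from -0.087 to 0.070 without 1 library (above 0 without ctrl 6 or cold 7). Adipor2 turned to 0.010 without ctrl 10 and cold 7 and ran from -0.11 to 0.096 (above 0 without ctrl 6, ctrl 10 or cold 16). Without 1 library Cdh2 ran from -0.22 to 0.014 (above 0 without ctrl 5 or cold 12), Celsr2 from -0.22 to 0.24 (below 0 without ctrl 6 or cold 12), Pcdh18 from -0.14 to 0.022, Kdr from -0.18 to 0.014 and Adam10 from -0.15 to 0.019, the last 3 above 0 without ctrl 10. Of the values of 56 named genes under 12 alternatives, 563 kept direction and call, 45 became called, 49 lost a call and 15 changed sign. Except where fewer libraries entered the fit, the cause of these moves was not tested. No paired analysis was possible because the groups share no mouse numbers. The 45 members below the filter were not tested in the fit reported, and 3 mice per group limit every p.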
